A study of Mus musculus with 366 samples.

Results

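Nnt encodes the nicotinamide nucleotide transhydrogenase of the inner mitochondrial membrane. It was examined with the antioxidant enzymes Sod1, Sod2, Sod3, Cat, Gpx1, Gpx3, Prdx6, Hmox1 and Nqo1 in 366 aortas of F1 mice from 101 strains. Members were the probe sets whose symbol in the platform annotation is one of these 10 names. Both probe sets of Nnt were kept, and the probe set with the highest mean stood for each other gene. This gave 10 probe sets of 9 genes, out of 45141 probe sets in all. Prdx6 had no probe set under its symbol and has no values here.

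Every mouse was a female F1 taken at 24 weeks of age, after 8 weeks of chow and 16 weeks of Western diet. The mothers came from 1 of 31 classical inbred strains or 70 recombinant inbred strains (36 BXD, 21 AXB/BXA, 9 CXB and 4 BXH). The fathers had a C57BL/6J background and carried human APOE-Leiden (heterozygous) and CETP (homozygous) transgenes. The authors selected F1 mice that carried both transgenes. All groups thus had at least 1 C57BL/6 parent and differed by the mother's genome. Each array held the aorta of 1 mouse, and a strain had 1 to 8 arrays with a median of 4. A strain name below stands for its F1 mice. C57BL/6J carries a known deletion within Nnt. By descent its F1 mice would then have no intact copy from either parent, and F1 mice of a strain with an intact gene would have 1 copy. The genotype of the transgenic fathers at Nnt was not given in the sources used here, nor the place of the probes relative to the deletion, so a level of Nnt does not test that genotype.

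As background, the transhydrogenase uses the mitochondrial proton gradient to make NADPH from NADH. NADPH keeps the glutathione and thioredoxin systems reduced. Superoxide dismutases turn superoxide into hydrogen peroxide, Sod1 in the cytosol, Sod2 in mitochondria and Sod3 outside the cell, where it is abundant in the artery wall. Catalase and the glutathione peroxidases Gpx1 (inside the cell) and Gpx3 (secreted) remove the peroxide. Hmox1 breaks down haem, and Nqo1 reduces quinones. Both are known targets of the transcription factor Nrf2.

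RefSeq promoter windows, from 250 bases before to 50 bases after the gene start, were at hand for 6 of the 10 genes (Cat, Gpx1, Gpx3, Nqo1, Sod1 and Sod2). Those of Nqo1, Sod2 and Cat are shown because Sod2 and Cat rose and Nqo1 fell with the same marker genes across strains, as described below. They read 5′ to 3′ on the gene's strand in GRCm38.p6, with capitals for matches on either strand to the GC box GGGCGG, the TATA box TATAAA or the core antioxidant response element TGACNNNGC.
Nqo1 (chr8:107403156-107403455, minus strand): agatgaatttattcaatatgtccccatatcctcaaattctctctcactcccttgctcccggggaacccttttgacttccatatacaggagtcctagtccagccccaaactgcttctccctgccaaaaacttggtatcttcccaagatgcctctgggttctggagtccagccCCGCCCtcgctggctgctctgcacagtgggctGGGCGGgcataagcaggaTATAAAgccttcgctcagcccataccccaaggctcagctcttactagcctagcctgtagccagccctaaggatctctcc
Sod2 (chr17:13007589-13007888, plus strand): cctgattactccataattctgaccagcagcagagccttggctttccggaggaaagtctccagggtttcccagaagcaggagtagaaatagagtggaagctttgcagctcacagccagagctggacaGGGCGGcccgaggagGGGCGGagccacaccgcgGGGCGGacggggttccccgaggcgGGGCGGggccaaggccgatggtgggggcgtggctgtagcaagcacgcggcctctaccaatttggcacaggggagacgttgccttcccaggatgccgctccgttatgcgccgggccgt
Cat (chr2:103485104-103485403, minus strand): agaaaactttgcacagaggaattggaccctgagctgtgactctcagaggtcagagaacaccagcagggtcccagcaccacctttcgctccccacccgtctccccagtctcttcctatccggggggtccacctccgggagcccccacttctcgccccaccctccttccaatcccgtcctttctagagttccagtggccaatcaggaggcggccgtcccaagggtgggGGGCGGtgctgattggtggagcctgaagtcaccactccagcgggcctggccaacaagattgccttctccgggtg
The Nqo1 window held 2 GC boxes and 1 TATA box, the Sod2 window 4 GC boxes and the Cat window 1 GC box. None of these 3 windows held the letters of the antioxidant response element. Among the 6 windows, that of Sod1 held it, in 1 copy. Of all 32851 windows of 300 bases, 12.4% held the antioxidant response element, 35.7% a GC box and 13.6% a TATA box. A match is a run of letters and not a known site, and a window without a match says nothing about sequence beyond it.

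Markers of the artery wall were present, and so were markers of tissues around it. Smooth muscle markers averaged 8.34 (median over arrays of their mean log2 intensity) and ranged from 5.68 to 10.2, with Acta2, the smooth muscle actin, at a mean of 11.6. Brown adipocyte markers had a median of 10.6, and Ucp1, the uncoupling protein of brown fat, a mean of 12.9. Skeletal muscle markers ran from 3.02 to 12.5 between mice, and heart muscle markers from 3.32 to 10.9. Hepatocyte markers had a median of 3.20, near the median of all probe sets (3.28), but reached 9.67. In bulk tissue, fewer cells of a type and less RNA per cell cannot be told apart. Array medians lay between 3.17 and 3.40, and the labels gave no batch or date.

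Nnt varied more between mice of a strain than nearly all other probe sets, and most of that variation lay within strains. By its brighter probe set, the strain means ran from 4.03 in 129X1/SvJ (n = 2) to 7.87 in AXB13/PgnJ (n = 4) on the log2 scale, a 14.3-fold range. The SD between mice of a strain was 1.06, above that of 99.3% of all probe sets. The share of variance lying among strains was 19.9% (95% interval 9.70 to 31.5), close to the median of all probe sets, 17.9%. Strain means still differed more than mice within strains did (limma F = 1.96, adjusted p = 3.02e-05), but 77% of all probe sets passed that test. The dimmer probe set of Nnt, of a type (x_at) that may also bind other transcripts, gave a share of 16.1% (F = 1.75, adjusted p = 0.000503), and over strains it followed the first with r = 0.929.

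C57BL/6J was not set apart in the order of strain means, which were not adjusted for the muscle markers that Nnt followed, as described below. Its mean of 5.79 ± 0.66 (SD, n = 6) was the 28th lowest of 101 strains and the 6th lowest of the 31 classical strains. By the dimmer probe set it was the 15th lowest of 101 and the 5th lowest of 31. By the brighter probe set, the order rose in small steps, the largest being 0.28, between 129X1/SvJ and BXD75/RwwJ. In all 100 pairs of neighbours in the order, the ranges of single mice overlapped. Among so many ordered strains such overlap is usual, so it cannot show whether a break exists. Sod3, the member with the highest share of variance among strains, also had 0 pairs without overlap, and Sod1 had 2. Strains with lower means than C57BL/6J included 129X1/SvJ, whose 2 mice read 3.80 and 4.26. The skeletal muscle score of 129X1/SvJ, defined below, was -1.05, against 0.556 in C57BL/6J. The smooth muscle scores were -0.98 and -0.92.

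**Figure D1:**
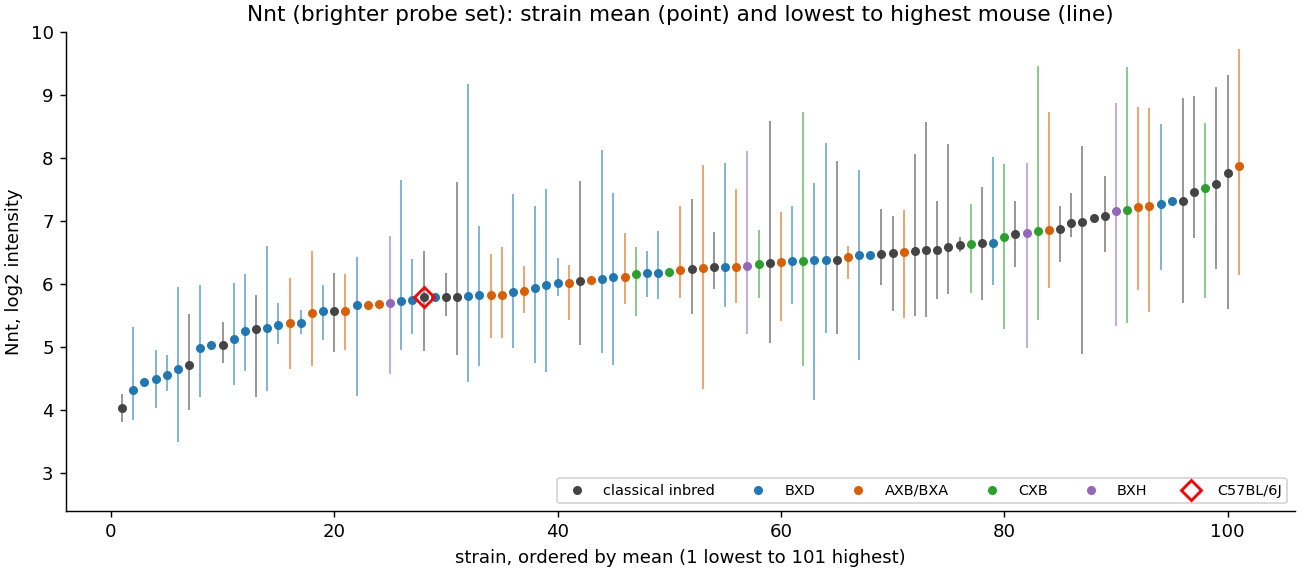
Nnt log2 intensity (brighter probe set) by strain, ordered by strain mean (points, coloured by strain family) with a line from the lowest to the highest mouse. C57BL/6J (red diamond, mean 5.79) lies at rank 28 of 101, and the largest step between neighbouring strain means is 0.28.

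The other members differed in how much of their variance lay among strains. Sod3 had the highest share, 57.7% (95% interval 47.9 to 67.1), above 98.5% of all probe sets. Its strain means ran from 6.38 in C58/J to 8.03 in BXD64/RwwJ, a 3.13-fold range (adjusted p = 1.57e-30). Gpx3 followed with 44.7% (34.0 to 55.7), from 10.5 in BXD13/TyJ to 12.1 in CXB1/ByJ (adjusted p = 1.35e-18). Gpx1 (35.1%), Sod2 (34.5%) and Cat (32.4%) had intermediate shares over narrow ranges, 1.39-fold, 1.38-fold and 1.94-fold. The top of the Cat range was BXD22/TyJ (n = 1). Gpx1 and Sod2 were also among the steadiest transcripts between mice of a strain, with an SD of 0.114 each. Sod1 had a share of 14.9% (adjusted p = 0.00149). Hmox1, with 25.4%, was dim: its mean of 3.06 lay below the median of all probe sets, so its differences may be compressed. Nqo1 had the lowest share, 7.48% (95% interval -1.40 to 18.3), and did not pass the test (F = 1.32, adjusted p = 0.0565). It lay near the threshold. In alternative fits it passed with bright probe sets alone (adjusted p = 0.0469), array weights (0.0136), adipocyte scores as covariates (0.0335) and without replicate 1 (0.0295). In the other alternatives it did not pass. In all, 8 of 9 genes passed in the main fit, against 77% of all probe sets, a share that includes dim ones.

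**Figure D2:**
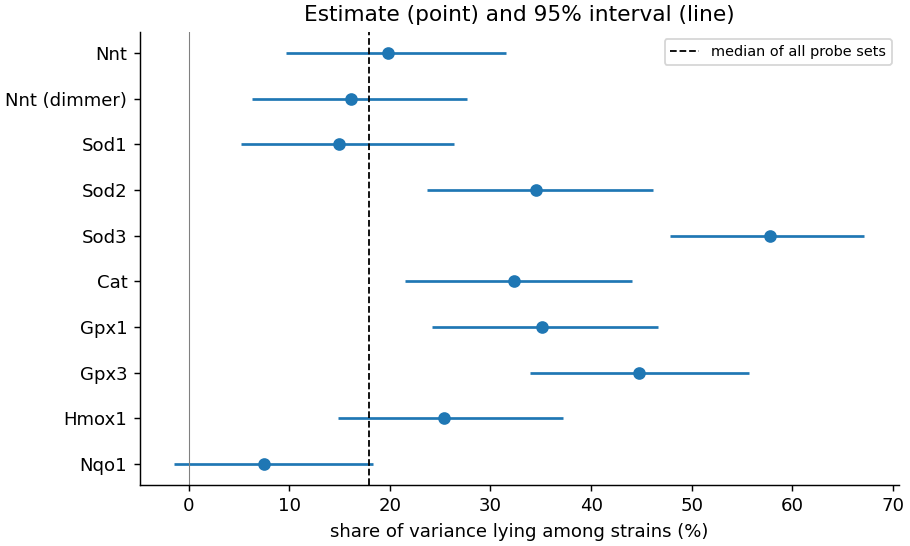
Share of variance lying among strains for each member (point) with its 95% interval (line), from the 95 strains with at least 2 arrays. Sod3 (57.7%) and Gpx3 (44.7%) lie to the right of the median of all probe sets (17.9%, dashed line), and Nqo1 (7.48%) lies to the left with an interval that includes 0.

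For Sod1 and Sod2 the probe sets of the gene disagreed. The dimmer probe set of Sod1 had a mean of 5.01 and followed the brighter one over strains with r = -0.128. Its share of variance among strains was 50.4% (adjusted p = 2.97e-23), against 14.9% by the brighter one, so the share of Sod1 depends on the probe set. The 3 further probe sets of Sod2 followed the one used with r = 0.809, 0.536 and 0.183, and their shares were 34.8%, 26.8% and 47.5%. The further probe sets of Cat (r = 0.900) and Sod3 (r = 0.838) followed theirs. These are descriptions over 101 strain means.

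The 5 progenitor strains of the recombinant sets were then compared. On the log2 scale Nnt read 4.93, 6.40, 6.13, 5.44, 6.53 and 5.29 in the 6 C57BL/6J mice. The 3 A/J mice read 5.60, 9.32 and 8.37. The 4 BALB/cJ mice read 7.35, 8.98, 6.73 and 6.80. All 4 BALB/cJ mice and 2 of the 3 A/J mice lay above every C57BL/6J mouse. C3H/HeJ ran from 5.06 to 8.60 with 2 of 8 mice above 8, and DBA/2J from 4.87 to 7.61, so both overlapped C57BL/6J. Nnt averaged 1.98 ± 0.80 (SE) higher in A/J than in C57BL/6J, 3.94-fold, without passing the test over all probe sets (limma adjusted p = 0.172). The difference was 1.68 ± 0.73 in BALB/cJ (3.20-fold, adjusted p = 0.179), 0.55 ± 0.61 in C3H/HeJ (adjusted p = 0.697) and 0.01 ± 0.68 in DBA/2J (adjusted p = 0.994). By the other probe set the differences were 2.35 ± 0.74 in A/J (adjusted p = 0.0677) and 1.96 ± 0.68 in BALB/cJ (adjusted p = 0.0809). Without A/J mouse 1, the low one, the A/J difference was 3.06 and passed (adjusted p = 0.0378).

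In A/J 4 of the 9 genes passed, where 4.86% of all probe sets did: Gpx3, Sod3, Gpx1 and Nqo1. Gpx3, the secreted peroxidase, was lower in A/J by 0.94 ± 0.21 (1.92-fold, adjusted p = 0.00962). Its A/J mice read 11.6, 10.9 and 10.2, and its C57BL/6J mice 12.2, 11.5, 11.9, 11.5, 12.0 and 12.1. The call rested on A/J mouse 3, without which the difference was -0.60 (adjusted p = 0.144). Sod3, the secreted dismutase, was lower by 0.75 ± 0.18 (1.68-fold, adjusted p = 0.0178). Its A/J mice (6.87, 6.30 and 6.55) all lay below its C57BL/6J mice (7.10 to 7.46). It did not pass without A/J mouse 2 (-0.61, adjusted p = 0.117) or mouse 3 (-0.73, adjusted p = 0.0791). Gpx1 was lower by 0.31 ± 0.09 (1.24-fold, adjusted p = 0.0438), with no overlap of mice, and Nqo1 was higher by 0.85 ± 0.24 (1.81-fold, adjusted p = 0.0408). Nqo1 read 4.04, 5.12 and 5.07 in A/J, and 3.51 to 4.21 in C57BL/6J. Both sat close to the threshold. Gpx1 passed in 3 of 9 and Nqo1 in 2 of 9 fits that left out 1 mouse. The Gpx1 difference failed without A/J mouse 2 (-0.19) or 3 (-0.38) and without C57BL/6J mouse 1 (-0.28), 3 (-0.32), 4 (-0.33) or 6 (-0.29). The Nqo1 difference failed without A/J mouse 2 (0.66) or 3 (0.69) and without C57BL/6J mouse 1 (0.88), 3 (0.87), 4 (0.83), 5 (0.85) or 6 (0.78).

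In BALB/cJ none of the 9 genes passed by limma, against 7.08% of all probe sets. By limma's unadjusted p under 0.05, which is no call here, 2 genes would have passed, Nnt and Sod3 (-0.49 ± 0.17, adjusted p = 0.0818). Without BALB/cJ mouse 1, Sod3 (-0.59, adjusted p = 0.0461) and Sod1 (-0.29, adjusted p = 0.0478) passed. In C3H/HeJ 1 gene passed, against 8.85% of all probe sets. This was Gpx1, the cytosolic peroxidase, lower by 0.27 ± 0.07 (1.21-fold, adjusted p = 0.0139). The 8 C3H/HeJ mice lay between 11.46 and 11.56, all below the C57BL/6J mice (11.68 to 11.95), and the call held in all 14 fits that left out 1 mouse. In DBA/2J 1 gene passed, against 3.53%. This was Gpx3, lower by 0.66 ± 0.18 (1.59-fold, adjusted p = 0.0404), at 11.0 to 11.4 against 11.5 to 12.2 in C57BL/6J, with no overlap. It passed in 2 of 11 fits that left out 1 mouse, with differences from -0.74 to -0.59. The fits without DBA/2J mouse 1 (-0.71), 2 (-0.69), 3 (-0.68), 4 (-0.62) or 5 (-0.62), or without C57BL/6J mouse 1 (-0.59), 3 (-0.66), 5 (-0.62) or 6 (-0.62), did not pass. The 4 contrasts share the C57BL/6J mice.

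**Figure D3:**
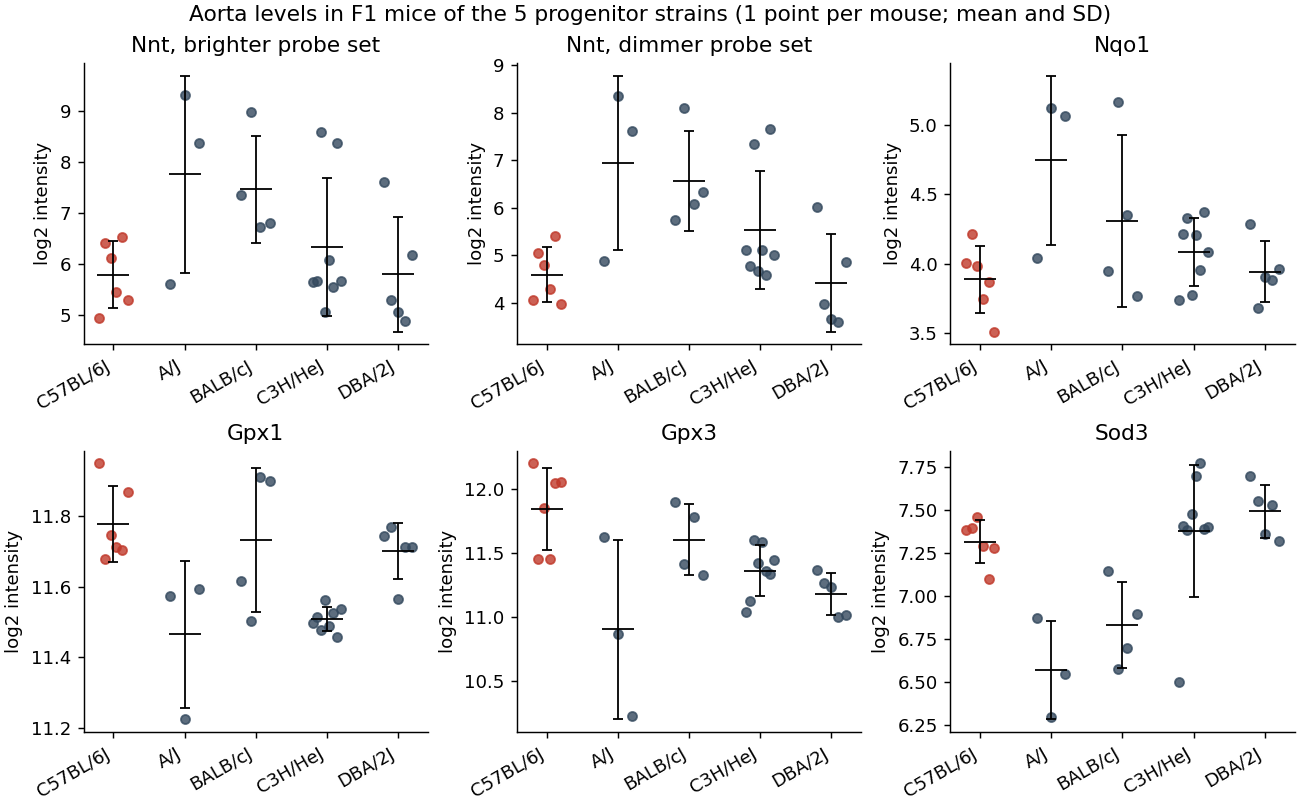
Log2 intensity of the 2 probe sets of Nnt and of Nqo1, Gpx1, Gpx3 and Sod3 in single F1 mice of the 5 progenitor strains, with the strain mean and SD (bars); axes do not start at 0. Gpx1 in all 8 C3H/HeJ mice and Gpx3 in all 5 DBA/2J mice lie below the C57BL/6J mice (red), whereas Nnt spreads over 3 log2 units within A/J and C3H/HeJ.

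Marker genes of other tissues moved with these contrasts. Smooth muscle markers were higher than in C57BL/6J for 8 of 9 measured markers in BALB/cJ and C3H/HeJ and for 2 of 9 in A/J and DBA/2J. Their mean level ran from 5.70 to 8.18 in the C57BL/6J mice, from 8.53 to 9.13 in BALB/cJ and from 8.18 to 8.69 in A/J. Endothelial markers were higher for 4 of 9 genes in C3H/HeJ and for none in the other 3 contrasts. General adipocyte markers were lower for 2 of 6 genes in BALB/cJ and C3H/HeJ, for 1 of 6 in A/J and for none in DBA/2J. Brown adipocyte markers were lower for 1 of 8 genes in BALB/cJ and higher for 1 of 8 in DBA/2J. Macrophage markers were lower in A/J for 6 of 12 genes and in BALB/cJ and C3H/HeJ for 1 of 12. Skeletal muscle markers passed for 0 of 11 genes in each contrast, but their mean level spanned 3.87 to 12.4 within the A/J mice. Their median difference from C57BL/6J was 0.53 in A/J, 0.36 in BALB/cJ, -2.40 in C3H/HeJ and -2.30 in DBA/2J. Heart muscle markers were lower for 1 of 9 genes in C3H/HeJ and passed for none in the other 3 contrasts. Their median difference was 0.08 in A/J, 0.63 in BALB/cJ, -0.07 in C3H/HeJ and -1.92 in DBA/2J. With smooth and skeletal muscle scores as covariates, a setting added after the data had been seen, Gpx3 still passed in A/J (-1.11 ± 0.27, adjusted p = 0.0223) and DBA/2J (-0.83 ± 0.21, adjusted p = 0.0213). Nqo1 in A/J also passed (1.01 ± 0.27, adjusted p = 0.0378). Nnt in A/J passed by its dimmer probe set (2.23 ± 0.59, adjusted p = 0.0374) and not by its brighter one (adjusted p = 0.176). Hmox1, which had not passed in DBA/2J without covariates (0.38 ± 0.13, adjusted p = 0.109), did so here (0.50 ± 0.14, adjusted p = 0.0387). Sod3 in A/J (-0.81, adjusted p = 0.0579) and Gpx1 in A/J (-0.24, adjusted p = 0.241) and C3H/HeJ (-0.25, adjusted p = 0.206) did not. With adipocyte scores as covariates no member passed in any of the 4 contrasts: the differences were -0.53 for Gpx3, -0.51 for Sod3, -0.34 for Gpx1 and 0.87 for Nqo1 in A/J, -0.29 for Gpx1 in C3H/HeJ and -0.49 for Gpx3 in DBA/2J.

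Against the mean of the 30 other classical strains, C57BL/6J was higher in Gpx3 alone among the 9 genes, where 7.09% of all probe sets passed. Gpx3 averaged 11.8 ± 0.32 (SD, n = 6) in C57BL/6J and 11.4 ± 0.32 (SD over 30 strain means) in the others, a difference of 0.46 ± 0.14 (SE, adjusted p = 0.0335), and 27 of the 30 strains lay below it. That call did not pass without C57BL/6J mouse 1 (0.38), 3 (0.45), 5 (0.42) or 6 (0.41), nor when each strain mean counted as 1 value (adjusted p = 1.00, where 0.00222% of all probe sets passed). Nnt was lower in C57BL/6J by 0.61 ± 0.40 with the first probe set (adjusted p = 0.453) and by 0.90 ± 0.38 with the second (adjusted p = 0.145), and 5 and 4 of the 30 strains lay lower still. Smooth muscle markers were lower in C57BL/6J for 8 of 9 genes in the same contrast. With the muscle scores as covariates, the Gpx3 difference was 0.37 ± 0.16 and no longer passed (adjusted p = 0.230), and with the adipocyte scores it was 0.27 (adjusted p = 0.118). With the muscle scores, the Nnt difference was -0.64 ± 0.30 with the first probe set (adjusted p = 0.263) and -0.99 ± 0.28 with the second, which then passed (adjusted p = 0.0271).

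Within the recombinant inbred sets, strains were compared among themselves. In the BXD set 7 of 9 genes differed among strains, against 42.5% of all probe sets. Gpx3 led with an F of 5.10 (adjusted p = 3.08e-08) and strain means from 10.5 to 12.0, and 28 of 36 strain means lay between those of DBA/2J (11.2) and C57BL/6J (11.8). Sod3 followed (F = 4.22, adjusted p = 1.23e-06). Its strain means ran from 6.68 in BXD34/TyJ (n = 1, not in the test) to 8.03. Of its 36 strain means, 10 lay above both parents and 21 below both. Nnt did not pass (F = 1.69, adjusted p = 0.0613), with means from 4.31 in BXD75/RwwJ to 7.31 in BXD18/TyJ around nearly equal parents (5.80 and 5.79). With the muscle scores as covariates it passed (F = 2.35, adjusted p = 0.00430), and with the adipocyte scores too (F = 2.08, adjusted p = 0.0139). In the AXB/BXA set 6 of 9 genes passed, against 40.1%. Sod3 (F = 6.68, adjusted p = 1.02e-06) and Cat (F = 4.50, adjusted p = 0.000102) had the highest values. Nqo1 passed in this set (F = 2.09, adjusted p = 0.0477), but not without replicate 1, 3 or 4. Its strain means ran from 3.49 in BXA1/PgnJ (n = 1, not in the test) to 5.17 in AXB5/PgnJ (n = 4). Nnt did not pass (adjusted p = 0.117). Of the 21 strain means of Nnt, 15 lay between those of A/J and C57BL/6J, 5 below both and 1 above both. In the CXB set 2 genes passed, against 12.9%: Gpx3 (F = 6.13, adjusted p = 0.00778) and Sod3 (F = 3.92, adjusted p = 0.0414). Sod3 did not pass there without arrays high in hepatocyte markers, with the muscle scores, or without replicate 1, 2, 3 or 4. In the 4 BXH strains 1 passed, against 6.89%: Gpx3 (F = 22.1, adjusted p = 0.00267), at 10.7 in BXH6/TyJ and up to 11.6 in BXH19/TyJ. Gpx3 passed in each of the 4 sets, but in 3 of them the call depended on the mice or the covariates. In the BXD set it passed in every alternative run. In the AXB/BXA set it did not pass without replicate 2, 3 or 4 (adjusted p = 0.0772, 0.149 and 0.237). In the CXB set it did not pass without replicate 1, 2 or 4 (adjusted p = 0.118, 0.0634 and 0.0672) or with the adipocyte scores (0.0554). In the BXH set it did not pass without replicate 3 (adjusted p = 0.0610), with the adipocyte scores (0.0897) or with the muscle scores (0.0866). Leaving out replicate 1, 2, 3 or 4 of every strain left 3 to 5 members in the BXD set, 2 to 4 in the AXB/BXA set, 0 or 1 in the CXB set and 0 to 2 in the BXH set. Calls over all probe sets also changed between settings, as listed in the closing section.

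The genes whose strain means were most like those of Nnt were taken in order of r. Over 101 strain means, Got2 was first (r = 0.884), followed by Slc25a12 (0.878), Rilpl1 (0.873), Asb2 (0.870), Sgca (0.869), Synpo2 (0.868), Cap2 (0.861), Nexn (0.858), Schip1 (0.858) and Cmya5 (0.852). Got2 is the mitochondrial aspartate aminotransferase and Slc25a12 a mitochondrial aspartate-glutamate carrier. Sgca is a sarcoglycan of the muscle membrane, and Asb2, Nexn and Cmya5 are expressed in muscle. Synpo2 is itself one of the smooth muscle markers used here. Between mice of one strain the same 10 genes followed Nnt with r from 0.908 to 0.962. Of the 10 genes, 2 (Cap2 and Cmya5) are on chromosome 13 with Nnt. Nqo1 was most like Egf and Ptpn3, together with Dtna of the dystrophin complex (r = 0.819 for Dtna). Sod2 was most like Txnrd2, the mitochondrial thioredoxin reductase (r = 0.780), Timm9 and Cmc2, and Cat most like Hsdl2 (0.812), Mettl9 and Fabp4, the adipocyte fatty acid carrier (0.789). Sod3 was most like Copg1 (0.865), Ifitm2 and Anxa6. Sod1 ran against Prrc2b (-0.797), Ankrd11 and Cpd. For Gpx1 (Lox, 0.554), Gpx3 (Irf4, 0.676) and Hmox1 (Vti1b, 0.628) the closest genes were less close.

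Nnt and Nqo1 rose with skeletal and smooth muscle markers and fell with fat markers. Each marker list was reduced to a score per array, the mean of its genes after each was scaled to a mean of 0 and an SD of 1. The relations with the skeletal and heart muscle scores were added after the data had been seen. Nnt followed the skeletal muscle score over strain means (r = 0.552, rho = 0.566, both permutation p = 1e-05, limma adjusted p = 1.71e-07), where 3.98% of all probe sets passed, and leaving out the 2 strains farthest from the median gave r = 0.546. Between mice of one strain r was 0.764. It followed the smooth muscle score less closely (r = 0.468, rho = 0.463, both permutation p = 1e-05, adjusted p = 3.66e-06, without 2 strains 0.454), where 57.7% passed, and ran against the brown adipocyte score (r = -0.646, rho = -0.653, both permutation p = 1e-05, adjusted p = 9.97e-12, without 2 strains -0.657), where 45.2% passed. The value 1e-05 is the smallest that 100000 permutations can give. Skeletal and smooth muscle scores together accounted for 58.7% of the variance of the strain means of Nnt and 66.6% of its variance between mice of a strain. The smooth muscle score includes Synpo2, itself among the genes most like Nnt (r = 0.868), and no value without Synpo2 is given. The heart muscle list was chosen after its genes had been compared with Nnt, and its score had r = 0.310 with Nnt (rho = 0.301, permutation p = 0.0016 and 0.0024, adjusted p = 0.0707).

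Nqo1 had the same signs, with r = 0.467 for skeletal muscle (rho = 0.478), 0.421 for smooth muscle (rho = 0.466) and -0.587 for brown adipocyte markers (rho = -0.554). For these, permutation p was at most 4e-05 and adjusted p at most 5.68e-05, and r without 2 strains was 0.440, 0.406 and -0.548. Sod2 and Cat rose with fat markers. Sod2, the mitochondrial dismutase, had r = 0.664 with the brown adipocyte score (rho = 0.608, both permutation p = 1e-05, adjusted p = 6.27e-12, without 2 strains 0.647) and Cat r = 0.553 (rho = 0.533, both permutation p = 1e-05, adjusted p = 3.43e-08, without 2 strains 0.558). Sod3 rose with endothelial markers (r = 0.559, rho = 0.532, both permutation p = 1e-05, adjusted p = 1.10e-08, without 2 strains 0.538), where 57.2% of all probe sets passed. Hmox1, which macrophages express, rose with macrophage markers (r = 0.566, rho = 0.506, both permutation p = 1e-05, adjusted p = 9.26e-08, without 2 strains 0.487), where 13.8% passed, and was the 1 member to pass there. Gpx3 passed with none of the 9 scores over strain means, the value farthest from 0 being r = -0.177 with macrophage markers. Between mice of one strain it did pass, with general adipocyte (r = 0.465, adjusted p = 2.43e-14), endothelial (r = 0.333, adjusted p = 2.60e-07) and brown adipocyte markers (r = 0.149, adjusted p = 0.0326). Of the 9 genes, 3 passed with the skeletal muscle score, 7 with smooth muscle, 6 with endothelial, 5 with general adipocyte (33.3% of all probe sets) and 5 with brown adipocyte markers. With skeletal muscle these were Nnt, Nqo1 and Sod3. Sod3 fell with that score (r = -0.322, rho = -0.311, limma adjusted p = 0.0295, without 2 strains -0.317), also between mice of a strain (r = -0.356). With erythroid markers 1 gene passed (13% of all probe sets), and none did with hepatocyte (1.03%) or heart muscle markers (1.3%). Between mice of one strain, 6 genes passed with skeletal muscle (27.2% of all probe sets), 6 with smooth muscle (59.5%), 4 with endothelial (39.9%), 8 with general adipocyte (37.3%), 8 with brown adipocyte (47.6%), 3 with erythroid (14.1%), 2 with macrophage (13.1%), 1 with heart muscle (10.2%) and 0 with hepatocyte markers (1.29%). Strains of a recombinant set share ancestors, so strain means are not fully independent points. Whether muscle or fat left on the aortas accounts for these relations was not tested.

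**Figure D4:**
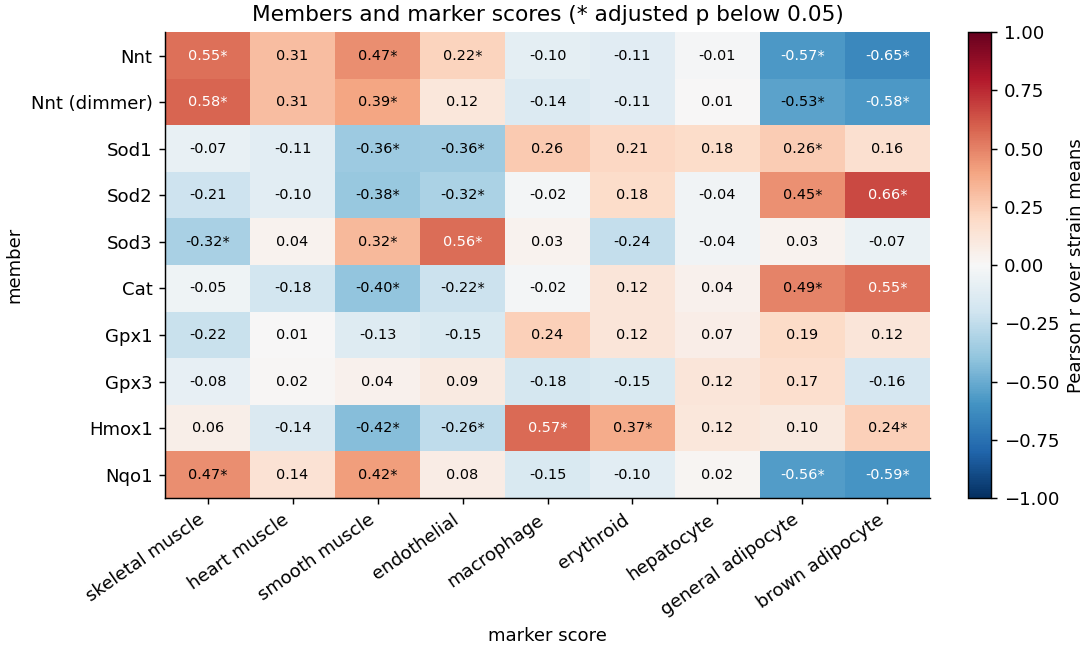
Pearson r over 101 strain means between each member (rows) and each marker score (columns), from -1 (blue) to 1 (red), with a star where limma's adjusted p was below 0.05. Both Nnt rows and Nqo1 have starred red cells for skeletal and smooth muscle and starred blue cells for adipocyte scores. Sod2 and Cat have starred red cells for adipocyte and starred blue cells for smooth muscle scores, and none starred for skeletal or heart muscle.

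In the progenitors, the single mice with the highest Nnt also had bright skeletal muscle markers, but not every mouse followed. The A/J mice with high Nnt (9.32 and 8.37) had skeletal muscle markers at a mean level of 12.4 and 11.9, and the third, at 5.60, had them at 3.87. In C3H/HeJ the 2 mice with Nnt at 8.60 and 8.39 had markers at 12.1 and 11.7. The C57BL/6J mice 2 and 5 had markers at 10.6 and 10.7, and Nnt at 6.40 and 6.53. DBA/2J mouse 1 had markers at 10.8 and Nnt at 7.61, and DBA/2J mouse 3 had markers at 9.0 and Nnt at 5.05. In BALB/cJ, mouse 2 had markers at 12.3 and Nnt at 8.98, mouse 1 had 10.4 and 7.35, and mouse 4 had 9.91 and 6.80. BALB/cJ mouse 3 had markers at 3.89, and its Nnt of 6.73 still lay above all 6 C57BL/6J mice. These mice were picked after their values had been seen, and no test was made of the difference between them.

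**Figure D5:**
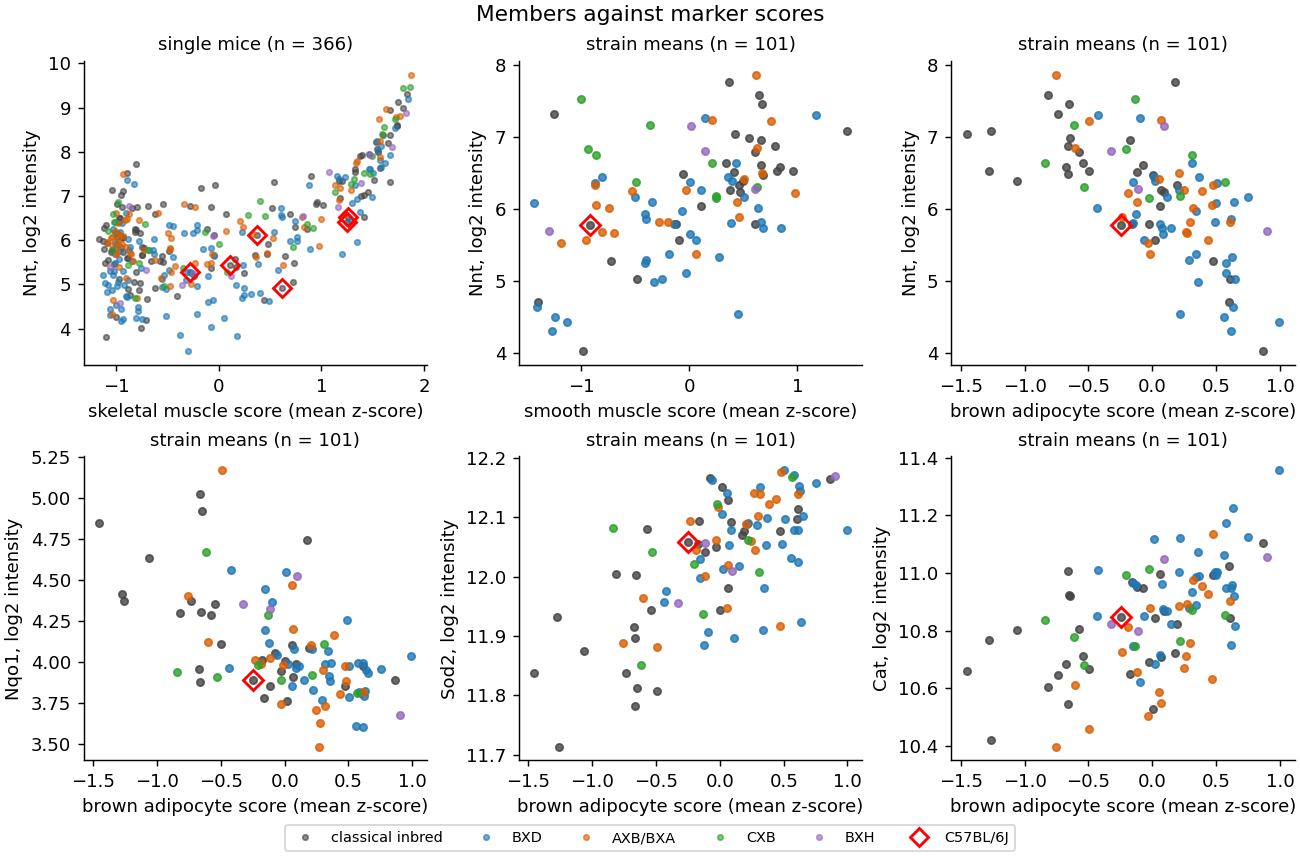
Nnt against the skeletal muscle score in single mice (n = 366), and strain means (n = 101) of Nnt, Nqo1, Sod2 and Cat against smooth muscle or brown adipocyte scores, coloured by strain family, with C57BL/6J as red diamonds; levels are log2 intensities. In single mice Nnt rises mostly at skeletal muscle scores above 1, and over strain means it falls with the brown adipocyte score (r = -0.646), as Nqo1 does.

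Last, the relation between Nnt and the enzymes was examined. C57BL/6J (5.79) lay below the lowest of the 4 other progenitors by 0.015 only, and by the rule set for that case the fit ran separately in the 57 strains below and the 44 above the midpoint of 6.31 between C57BL/6J and the mean of the others (6.84). By the dimmer probe set DBA/2J (4.42) lay below C57BL/6J (4.59), and the rule would not have split the strains. Splitting on Nnt itself narrows its range, which can weaken r in each part. Below the midpoint 2 of 8 enzymes passed, against 15.2% of all probe sets: Cat (r = -0.432, rho = -0.328, permutation p = 9e-04 and 0.013, adjusted p = 0.0130, without 2 strains -0.484) and Nqo1 (r = 0.349, rho = 0.387, permutation p = 0.0079 and 0.0029, adjusted p = 0.0484, without 2 strains 0.310). Above it none passed by limma, against 0.829%, although Nqo1 (r = 0.407, rho = 0.432), Cat (-0.366, rho = -0.327), Sod2 (-0.336, rho = -0.415) and Gpx1 (-0.321, rho = -0.217) had an unadjusted permutation p for r of 0.0059, 0.015, 0.027 and 0.034. Their adjusted p was 0.262, 0.436, 0.599 and 0.675, and r without the 2 farthest strains 0.371, -0.283, -0.389 and -0.152. As the order of strain means rose in small steps, the 101 strains were also fitted as 1 group, a setting added after the data had been seen. Then 4 of 8 passed, against 34.9%: Nqo1 (r = 0.628, rho = 0.685), Cat (-0.512, rho = -0.441), Sod2 (-0.505, rho = -0.526), each with permutation p of at most 2e-05 for both, and Gpx1 (-0.303, rho = -0.275, permutation p = 0.002 and 0.0059). Their adjusted p was 1.34e-10, 1.49e-06, 3.46e-06 and 0.0109. Without the 2 strains farthest from the median, r was 0.626, -0.528, -0.496 and -0.343. With both muscle scores as covariates Cat alone passed (adjusted p = 0.000238, 4.53% of all probe sets), Nqo1 had an adjusted p of 0.124 and Sod2 of 0.0523.

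The wider pathway was followed with 6 lists of 74 genes, of which 62 had a probe set of their own. Among all strains 58 of the 62 passed (93.5%), against 77% of all probe sets. The 77% includes dim probe sets, and no share among probe sets of like brightness is given. No excess is therefore read from these shares. The highest F values were those of Gpx8 (8.05), Prdx3, the mitochondrial peroxiredoxin (6.68), Gsr, which recycles glutathione with NADPH (5.57), Aox1 (5.54) and Gstm1 (5.53). Gsr was higher than in C57BL/6J in A/J (0.60 ± 0.17, adjusted p = 0.0350) and DBA/2J (0.55 ± 0.14, adjusted p = 0.0279). In A/J it was the 1 gene of the 62 to pass (1.61%, against 4.86% of all probe sets). In BALB/cJ 1 passed higher and 4 lower (8.06%, against 7.08%), among them Mthfd2l of mitochondrial folate metabolism (-0.97 ± 0.16, adjusted p = 0.000374) and Srxn1, which repairs peroxiredoxins (-0.79 ± 0.16, adjusted p = 0.00287). In C3H/HeJ 2 passed higher and 8 lower (16.1%, against 8.85%), including Mthfd2l (-1.08 ± 0.13, adjusted p = 5.41e-06), Gstk1 (-0.47 ± 0.08, adjusted p = 0.000758) and Prdx3 (-0.27 ± 0.07, adjusted p = 0.0146), with Gss, the glutathione synthetase, higher (0.67 ± 0.14, adjusted p = 0.00243). In DBA/2J 1 passed higher and 3 lower (6.45%, against 3.53%), with Me1, the cytosolic malic enzyme, at -0.90 ± 0.20 (adjusted p = 0.0100). The median difference of the 62 genes lay between -0.12 in A/J and 0.01 in BALB/cJ, and that of all probe sets between -0.024 and -0.0044. Against the other classical strains, 5 of the 62 passed (8.06%, near the 7.09% of all probe sets), all higher in C57BL/6J: Mthfd2l (0.60 ± 0.10, adjusted p = 2.56e-05), Srxn1 (0.43 ± 0.10, adjusted p = 0.00363), Nadk2 (0.29 ± 0.07, adjusted p = 0.00365), Prdx3 (0.22 ± 0.05, adjusted p = 0.000561) and Gstk1 (0.22 ± 0.07, adjusted p = 0.0217). When each strain mean counted as 1 value, only 1 of all 45141 probe sets passed this contrast. Smooth muscle markers were lower in C57BL/6J for 8 of 9 genes in it. No fit with covariates, on strain means or without single mice is given here for the pathway genes.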

How the data were processed

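Aortic RNA of 366 F1 females was hybridised to Affymetrix HT_MG-430 PM arrays (HT_MG-430A in the labels), 1 array per mouse. The deposited values are log2 intensities per probe set that the authors computed with RMA after scanning with GCOS (versions not given in the sources used here). They run from 1.63 to 13.7, hold no detection calls and name no genome build. The number of arrays, not sequencing depth, limits precision. Differences of dim probe sets can be compressed. Nothing in the labels says whether the mice of a strain shared a cage or litter.

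Genes were named from the platform annotation. Of 45141 probe sets, those with 1 symbol were used for naming. The members and lists were chosen with earlier results of these data known. Tests used limma 3.58.1 in R 4.3.3 on the values as deposited, with Benjamini-Hochberg adjustment over all 45141 probe sets and a threshold of 0.05. F tests covered the 95 strains with at least 2 arrays (360 arrays) or 1 recombinant set. Progenitor contrasts were fitted on the 5 progenitor strains, and the classical contrast on 31 strains against the unweighted mean of 30 strain means. Relations were fitted over strain means, with two-sided permutation tests of r and rho (100000 permutations). In all, 90 relations with marker scores were computed. Named genes were the members, the 10 genes most correlated with Nnt, the 3 most correlated with each other member, and up to 3 called genes of a pathway list per comparison with the largest difference or F. Marker and pathway genes without a probe set under their own symbol were left out. Each fit was tested on simulated data. Alternatives were other filters, array weights, quantile normalization, marker scores as covariates, other sets of strains and leaving out mice. Promoter sequences are RefSeq's (GRCm38.p6). Lesion measurements were not used here.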

Additional observations from a re-analysis of the deposited data

Results flagged for a closer look

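Of 52 groups of 4 to 10 mice examined (a member in a progenitor strain or in its lowest or highest strain), 4 held a mouse far from the rest, and chance alone flags about 1 in 20. In C3H/HeJ, mouse 2 had Sod1 at 12.1, above the other 7 mice at 11.6 to 11.8, mouse 3 had Sod2 at 11.8, below the others at 12.1 to 12.2, and mouse 1 had Sod3 at 6.50, below the others at 7.38 to 7.77. In DBA/2J, mouse 3 had Gpx1 at 11.6, below the other 4 mice at 11.7 to 11.8. C3H/HeJ mouse 3 was also one of the 2 mice of that strain with high Nnt (8.60) and high skeletal muscle markers (12.1).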

How the results depend on the processing

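No paired analysis was possible because the labels give no replicate numbers. The mice were numbered in accession order.

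Counts are of the 9 measured genes. Differences among all strains were called for 8 and for 7 to 9 over 10 alternatives. Leaving out 1 replicate gave 3 to 5 in the BXD set, 2 to 4 in the AXB/BXA set, 0 to 1 in the CXB set, 0 to 2 in the BXH set, 0 to 5 in A/J, 0 to 2 in BALB/cJ, 1 to 2 in C3H/HeJ, 0 to 1 in DBA/2J and 0 to 1 against the classical strains. Without arrays high in hepatocyte markers the CXB count was 1. With adipocyte scores as covariates the counts were 1 in CXB and 0 in BXH, A/J, C3H/HeJ, DBA/2J and the classical contrast. With muscle scores, added after seeing the data, they were 1 in CXB, 0 in BXH, 2 in A/J, 0 in C3H/HeJ, 2 in DBA/2J and 0 in the classical contrast. With only the 2 strains compared they were 1 in A/J, 1 in BALB/cJ (Sod3) and 2 in C3H/HeJ (Gpx1 and Gpx3), which was also 2 when all strains shared the spread. Array weights gave 2 in BXH, 1 in BALB/cJ, 2 in C3H/HeJ and 2 in DBA/2J (Gpx3 and Hmox1). With bright probe sets alone, a filter that removes Hmox1, BXH had 2 and C3H/HeJ 2. Quantile normalization gave 0 in DBA/2J. On strain means the classical contrast gave 0, and 1 probe set in all against 3202. Calls over all probe sets moved with the setting too, so a changed count need not be particular to the members. They ran from 9385 to 27655 in BXD (19177 in the main fit), 9540 to 25422 in AXB/BXA (18082) and 1723 to 10923 in CXB (5817). In BXH the range was 164 to 4986 (3111), in A/J 1017 to 3011 (2195) and in BALB/cJ 900 to 3379 (3194). In C3H/HeJ it was 1209 to 4874 (3993), in DBA/2J 1080 to 4951 (1594) and against the classical strains 1 to 5555 (3202). The cause of these changes was not tested.

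For marker scores, strains with at least 3 arrays gave 2 for macrophage, 3 for endothelial and 3 for erythroid markers. Mice within strains gave 2 for macrophage, 8 for general adipocyte, 8 for brown adipocyte, 3 for erythroid, 6 for skeletal muscle and 1 for heart muscle markers. Strain medians gave 2 for macrophage and 1 for heart muscle markers, and leaving out arrays high in hepatocyte markers gave 1 for hepatocyte markers. Calls over all probe sets ran from 2960 to 6531 for macrophage (6215 in the main fit), 17992 to 26869 for endothelial (25835) and 3352 to 8193 for erythroid markers (5869). For general adipocyte markers they ran from 10988 to 16834 (15044), and for brown adipocyte markers from 17634 to 21475 (20389). For skeletal muscle the range was 1340 to 12262 (1798), for heart muscle 279 to 4589 (585) and for hepatocyte markers 292 to 8910 (464). For Nnt and the enzymes, strains with at least 3 arrays gave 0 below the midpoint, strain medians 1 below and 1 above, and leaving out arrays high in hepatocyte markers 1 below. All strains together gave 4, and 1 with muscle covariates. Calls over all probe sets ran from 632 to 15732 below (6852 in the main fit) and from 228 to 15732 above (374). The upper end was the fit of all strains together. Nnt in DBA/2J had no stable sign: it ran from -0.44 to 0.25 on leaving out 1 mouse, and the second probe set from -0.57 to 0.034, with 0.44 under muscle covariates.

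Arrays give no counts, and dim probe sets such as Hmox1 limit what can be seen.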
